A study of Mus musculus with 10 samples.

Results

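The matrix metalloproteinases (Mmp genes), the ADAMTS proteases with their ADAMTS-like relatives (Adamts and Adamtsl genes) and the tissue inhibitors of metalloproteinases (Timp genes) were taken from the count table by their symbols. The pattern was Mmp followed by a number with or without a or b, Timp with 1 digit, Adamts with a number, or Adamtsl with 1 digit. It found 51 of the 56748 genes in the table: 23 Mmp, 19 Adamts, 5 Adamtsl and 4 Timp genes. Of these, 48 had at least 1 count in the 10 libraries, and 3 (Mmp1b, Mmp7 and Mmp20) had none. Within the table the symbols alone chose them, but the families were picked with earlier results of these data known.

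The libraries came from primary adipocytes that had been differentiated in culture. Stromal vascular cells of inguinal fat of male mice aged 6 to 8 weeks received an adipogenic treatment for 6 to 8 days, the same in both groups. The 5 control cultures had the genotype Fam20c-flox, with floxed Fam20c alleles and no Cre. The 5 Ad-Fam20c–KO cultures (KO below) carried the same floxed alleles together with a constitutive Cre transgene under the Adiponectin promoter, a promoter that adipocytes switch on as they mature. Cells of the culture that do not express adiponectin would keep Fam20c, and since the controls carry no Cre, loss of Fam20c and presence of Cre cannot be told apart. The floxed line had been backcrossed to C57BL/6J mice for at least 5 generations. The sources used here do not say whether the 5 cultures of a group came from separate animals, so the p-values measure the spread between these cultures, which may be partly technical.

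Total counts were 18949106 to 26237825 in control and 19883101 to 23291792 in KO libraries. Values below are CPM, meaning counts put on one library size by edgeR's TMM method, given with the SD over 5 libraries. Levels of different genes are compared only as RPKM, which is CPM per kilobase of exon. The depth allowed a gene with 0 counts to hold up to 3 counts, or 0.114 to 0.158 CPM in a library, a limit that covers counting error only. Fam20c, a secretory pathway kinase and the targeted gene, averaged 10.2 ± 1.29 CPM in control cultures and 7.30 ± 0.449 CPM in KO cultures. Its log2 fold change was -0.49 (SE 0.0929, Benjamini-Hochberg adjusted p = 0.0137, edgeR quasi-likelihood test), and no KO library reached a control library (2-sided exact permutation test, p = 0.00794, the smallest the design allows). The count of a gene covers all its exons, floxed or not. On the first principal component, with 23.5% of the variance, control 4 and KO 1 stood apart from the other 8 libraries, so results below are also given without them where they change.

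The enzymes share a catalytic zinc ion and are made as inactive zymogens. MMPs cleave collagens, gelatin, elastin, laminins and many cell surface proteins, and in fat they remodel the matrix around growing adipocytes. ADAMTS proteases are secreted, bind the matrix through thrombospondin repeats, and cleave proteoglycans such as versican or trim procollagens. ADAMTS-like proteins have the same matrix-binding domains without the protease. TIMPs bind the active site of these enzymes and block it, with TIMP3 also acting on ADAM and ADAMTS proteases.

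A gene was tested when it passed edgeR's filter on low counts (minimum count 10), and 35 of the 51 did: 13 Mmp, 13 Adamts, 5 Adamtsl and 4 Timp genes. A gene was called when its adjusted p over all 14270 genes tested was under 0.05. Mmp9, gelatinase B, was the 1 member called higher in KO cultures, by 2.71-fold. It was called in only 3 of the 10 fits that left out 1 library. Adamts15 fell by 24.7%, Adamts4 fell by 31.2% and Adamts19 fell by 31.6%. The 3 genes called lower were 8.57% of the 35, where 1.86% of all genes tested were lower, and the 1 gene called higher was 2.86% of the 35, where 0.308% of all genes were higher. In either direction, 4 of the 35 were called (11.4%), and 2.17% of all genes. In the same 4 genes, and in no other of the 35, the lowest library of one group lay above the highest of the other. For all genes tested, that arrangement was found with KO lower in 2.66% and with KO higher in 1.31%. With 1 library left out in turn, the calls over all genes ranged from 164 to 323 lower and from 19 to 119 higher, and those among the 35 from 3 to 4 lower and from 0 to 1 higher.

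The log2 fold change was below 0 in 27 of the 35 members tested (77.1%), and in 50.3% of all genes tested. Its median was -0.16 over the 35 and -0.00085 over all genes, with a range from -0.84 (Mmp13) to 1.44 (Mmp9). An unadjusted p under 0.05 was found for 11 of 35 on the lower side (31.4%) and for 1 on the higher side, while the shares of all genes were 7.46% and 4.43%. By family, the counts below and above 0 were 10 and 3 for Mmp, 9 and 4 for Adamts, 4 and 1 for Adamtsl, and 4 and 0 for Timp. The summed CPM of all 51 genes was 1950 to 2215 in control and 1823 to 2110 in KO libraries, so the groups overlapped.

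**Figure D1:**
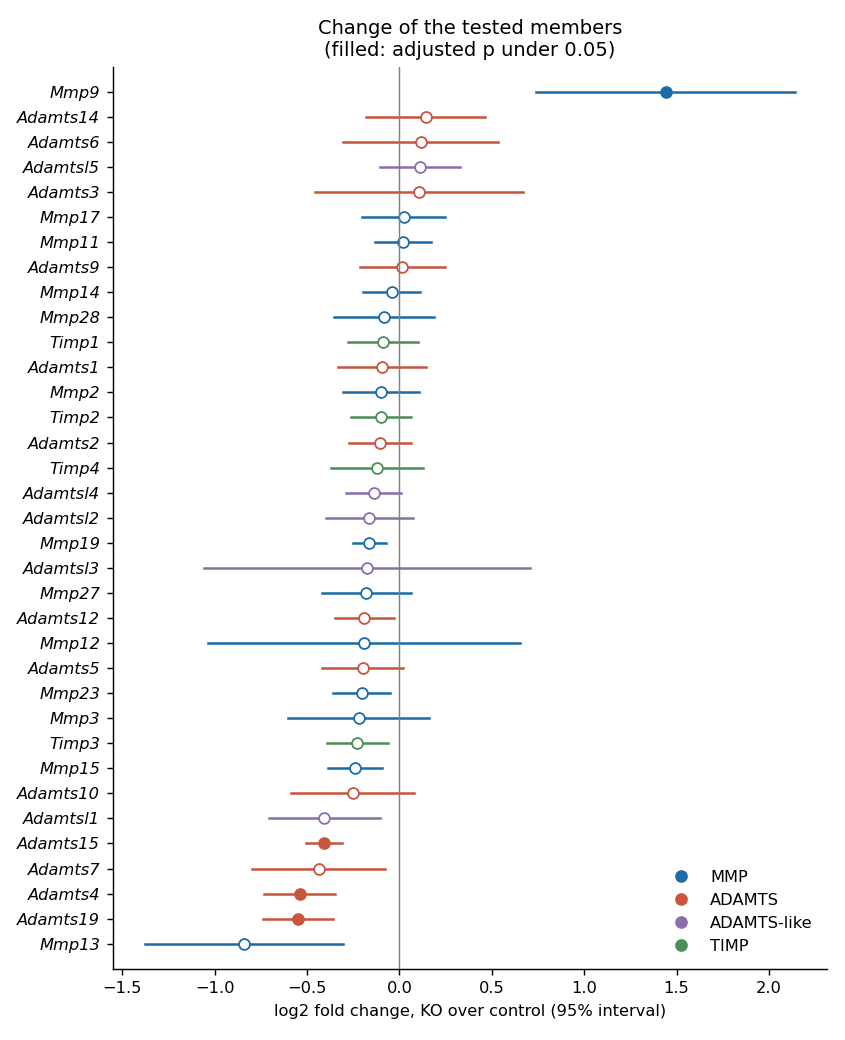
Log2 fold change of KO over control for each of the 35 tested genes with its 95% interval from the edgeR fit, ordered by size and coloured by family. Filled points had an adjusted p under 0.05: Mmp9 at 1.44 lies alone on the right, Adamts15, Adamts4 and Adamts19 lie between -0.41 and -0.55, and Mmp13 at -0.84 has a wide interval.

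Per exon length, the inhibitors Timp1 and Timp2 and a few proteases had the highest levels, while Timp3 and Timp4 had 9.42 and 0.750 RPKM. Timp1 had the highest mean level of all members at 91.5 RPKM, followed by Mmp2 at 78.5, Timp2 at 72.2, Mmp19 at 51.0, Mmp3 at 45.3, Mmp14 at 26.1 and Adamts2 at 25.8 RPKM. Neighbours in this order overlapped over the libraries in several cases: Timp1 ranged from 79.4 to 109.8 RPKM, Mmp2 from 66.4 to 93.1 and Timp2 from 62.5 to 84.1. Adamts1 led the proteoglycan-cleaving ADAMTS genes at 19.4 RPKM, ahead of Adamts15 at 9.70 and Adamts5 at 8.64. The highest ADAMTS-like gene was Adamtsl4 at 3.86 RPKM. Of the 4 called genes, Mmp9 averaged 6.31, Adamts4 2.03 and Adamts19 0.496 RPKM, so none was among the 10 highest members.

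**Figure D2:**
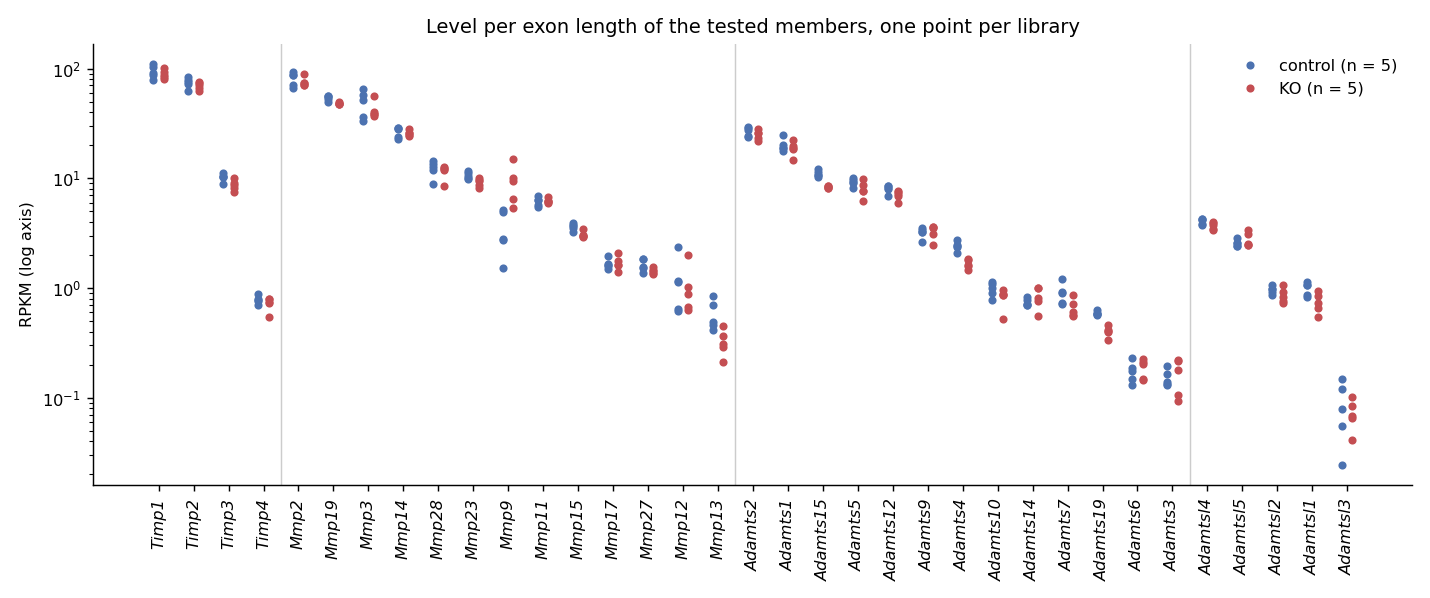
RPKM on a log axis for the 35 tested genes, with 1 point per library (blue control, red KO, n = 5 each), grouped as Timp, Mmp, Adamts and Adamtsl and ordered by mean level in each. Mean levels run from 91.5 RPKM for Timp1 to 0.0785 RPKM for Adamtsl3, and red and blue points separate for Mmp9, Adamts15, Adamts4 and Adamts19.

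The gelatinases, Mmp2 and Mmp9, cleave denatured collagen and basement membrane collagen. Mmp9 (chromosome 2, 164940780 to 164955850, plus strand, GENCODE M21 on GRCm38) had 9.70, 5.40, 18.1, 17.3 and 9.89 CPM in control 1 to 5, and 52.6, 18.8, 35.2, 33.1 and 23.1 CPM in KO 1 to 5. Every KO library was above every control library, but KO 2 at 18.8 was only just above control 3 at 18.1, and KO 1 was far above the rest. The mean was 12.1 ± 5.45 CPM in control and 32.6 ± 13.1 CPM in KO. On the log2 scale the fold change was 1.44 (SE 0.323, 95% interval 0.74 to 2.14, Benjamini-Hochberg adjusted p = 0.0370, edgeR quasi-likelihood test). This call was lost in 7 of the 10 fits that left out 1 library, with the log2 fold change between 1.21 and 1.64 in all 10. The adjusted p by edgeR's quasi-likelihood test was 0.103 without control 1, 0.0629 without control 2, 0.109 without control 5, 0.0648 without KO 1, 0.0763 without KO 3, 0.0823 without KO 4 and 0.0533 without KO 5. Without control 4 and KO 1 together it was 0.0234, with a log2 fold change of 1.38.

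Macrophages and neutrophils are known sources of MMP9, so their markers were read beside it. Of 14 macrophage and myeloid markers 0 were called by edgeR, DESeq2 or limma voom (here always run with sample quality weights), 0 had an unadjusted p under 0.05, and their summed level was 1580 to 2409 CPM in control and 1381 to 2273 CPM in KO libraries, with none at 0. Within the KO group, the 3 libraries with the most Mmp9 (KO 1, 3 and 4) also had the highest macrophage sums, of 2271, 2273 and 2084 CPM, and KO 2 and KO 5 had 1477 and 1381 CPM. In control libraries 1 to 5 the macrophage sums were 2044, 1655, 2409, 1657 and 1580 CPM. There control 3 had the most of both, but the order differed elsewhere. Control 4 had 17.3 CPM of Mmp9 with a sum of 1657, and control 1 had 9.70 CPM with a sum of 2044. Much of each sum was Lyz2, which averaged 1116 CPM in control and 1161 CPM in KO. The part of macrophages in the Mmp9 result was not tested. Neutrophil markers were nearly absent: 2 of 10 passed the filter, 0 of them with an unadjusted p under 0.05 or a call by any of the 3 tools, Retnlg and S100a9 were at 0, and the sum was 1.99 to 2.74 CPM in control and 1.41 to 2.43 CPM in KO. In RNA from a whole culture, more cells of a type and more RNA per cell cannot be told apart, which applies to every gene here.

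Mmp2, gelatinase A, was the highest MMP. Control 1 to 5 had 241, 224, 297, 314 and 293 CPM, and KO 1 to 5 had 301, 239, 247, 249.7 and 239 CPM. The groups overlapped widely, with KO 1 above all but 1 control library. The log2 fold change was -0.10 (95% interval -0.31 to 0.11, Benjamini-Hochberg adjusted p = 0.780, edgeR quasi-likelihood test).

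**Figure D3:**
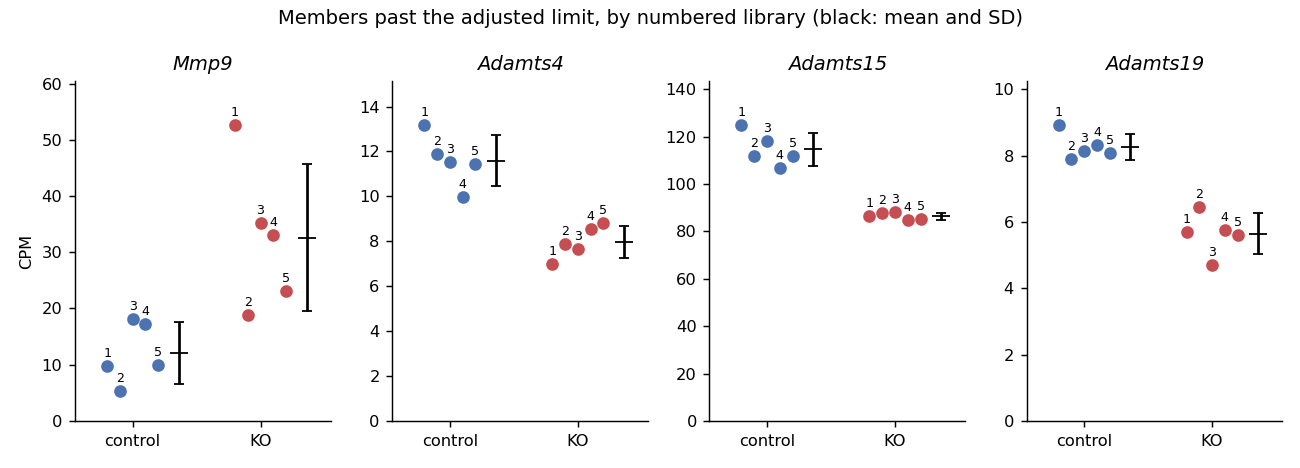
CPM of Mmp9, Adamts4, Adamts15 and Adamts19 in each library, numbered by replicate, with the mean and SD of each group in black and every axis starting at 0. Mmp9 has the wide spread (18.8 to 52.6 CPM in KO), whereas Adamts15 in KO lies within 84.7 to 88.1 CPM.

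Among the ADAMTS proteases that cleave proteoglycans, Adamts15 and Adamts4 fell. ADAMTS15 cleaves versican and aggrecan. Adamts15 (chromosome 9, 30899155 to 30922452, minus strand) had 125, 112, 118, 107 and 112 CPM in the 5 control libraries and 86.4, 87.7, 88.1, 84.7 and 85.1 CPM in the 5 KO libraries. The gap between the groups, from 88.1 to 107 CPM, was wider than the whole range within KO. It averaged 115 ± 6.97 CPM in control and 86.4 ± 1.53 CPM in KO. The change was -0.41 on the log2 scale (SE 0.0446, 95% interval -0.51 to -0.31, Benjamini-Hochberg adjusted p = 0.000323, edgeR quasi-likelihood test). It rested on 1672 to 2983 counts a library, the deepest of the 4 called genes.

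Adamts4 (chromosome 1, 171250421 to 171260637, plus strand) encodes aggrecanase-1. Its levels were 13.2, 11.9, 11.5, 9.96 and 11.5 CPM in control and 6.99, 7.86, 7.64, 8.57 and 8.81 CPM in KO. The highest KO library, KO 5, was below the lowest control library, control 4. The mean was 11.6 ± 1.14 CPM in control libraries against 7.97 ± 0.729 CPM in KO libraries, a log2 fold change of -0.54 (SE 0.0885, Benjamini-Hochberg adjusted p = 0.00555, edgeR quasi-likelihood test).

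The other tested genes of this role, Adamts1, Adamts5 and Adamts9, were not called. Adamts1, which cleaves versican and aggrecan, had 99.2, 94.3, 99.2, 132 and 107 CPM in control libraries and 119, 99.9, 77.6, 104 and 97.1 CPM in KO, with a log2 fold change of -0.09 (95% interval -0.33 to 0.14). The groups overlapped, from 94.3 to 119 CPM. Adamts5 (aggrecanase-2) lies 53.1 kb from Adamts1 on chromosome 16 and had 99.6 ± 7.59 CPM in control libraries and 86.8 ± 14.8 CPM in KO (log2 fold change -0.20, 95% interval -0.42 to 0.02). Adamts9 had 48.3 ± 5.11 and 48.8 ± 7.46 CPM. Adamts8, 20.1 kb from Adamts15 on chromosome 9, had 4 counts over all 10 libraries and was not tested, and Adamts20 had 27.

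Adamts19, a member with few known substrates, lies on chromosome 18. It had 8.92, 7.91, 8.14, 8.32 and 8.07 CPM in control libraries and 5.70, 6.45, 4.71, 5.77 and 5.60 CPM in KO, on 108 to 211 counts a library. The lowest control library, at 7.91, was above the highest KO library, at 6.45. Means were 8.27 ± 0.388 and 5.65 ± 0.621 CPM, with a log2 fold change of -0.55 (SE 0.0881, 95% interval -0.74 to -0.36, Benjamini-Hochberg adjusted p = 0.00477, edgeR quasi-likelihood test). Of the 6 ADAMTS genes outside the better known roles, Adamts6 and Adamts10 were also tested and not called (log2 fold changes 0.12 and -0.25), and Adamts16, Adamts17 and Adamts18 had 1, 47 and 2 counts in all.

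The calls of Adamts15, Adamts4 and Adamts19 held in all 18 alternative fits, which changed the tool, the scaling, the filter, the block or the libraries. Their log2 fold changes ranged from -0.43 to -0.38, from -0.59 to -0.49 and from -0.60 to -0.49. Markers of other cell types moved in the same comparison. Of 22 endothelial markers, 20 were called lower, the sum was 212 to 265 CPM in control and 90.7 to 135 CPM in KO, and none was at 0. Of 13 markers of adipose progenitors and fibroblasts, 2 were called lower by edgeR (Cd34, -0.91 on the log2 scale, and Pdgfra, -0.31). DESeq2 called 2 lower and limma voom 3. By edgeR 6 had an unadjusted p under 0.05 on the lower side and 0 on the higher, and 11 had a log2 fold change below 0. Sums were 1050 to 1325 CPM in control and 1011 to 1147 CPM in KO. Ly6a alone averaged 508 CPM in control and 487 CPM in KO. Of 8 tested pericyte and smooth muscle markers 0 were called by edgeR, DESeq2 or limma voom and 4 had an unadjusted p under 0.05 on the lower side, with sums of 153 to 192 and 133 to 163 CPM. All 14 mature adipocyte markers were present. By edgeR 0 were called and 5 had an unadjusted p under 0.05 on the higher side, while DESeq2 called 2 higher and limma voom 1, with sums of 41020 to 42071 CPM in control and 42805 to 44769 CPM in KO. The part of these cell types in the lower ADAMTS genes was not tested.

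ADAMTS2, ADAMTS3 and ADAMTS14 trim the N-terminal end of fibrillar procollagens. Adamts2 had 227, 221, 268, 256 and 276 CPM in control libraries and 243, 216, 202, 259.8 and 239 CPM in KO, and the groups overlapped (log2 fold change -0.10, 95% interval -0.27 to 0.06). Adamts14 and Adamts3 were far lower, at 0.781 and 0.157 RPKM, with log2 fold changes of 0.14 and 0.11, and neither was called. Adamts7 and Adamts12, which form their own branch and cleave cartilage oligomeric matrix protein, each had an unadjusted p under 0.05 without passing the adjusted limit. Adamts7 had 5.60 ± 1.23 CPM in control libraries and 4.13 ± 0.833 in KO (log2 fold change -0.44, SE 0.166, adjusted p = 0.283 by edgeR's quasi-likelihood test). Adamts12 had 92.1, 89.1, 75.2, 93.7 and 87.7 CPM in control libraries and 74.8, 83.2, 65.2, 82.5 and 78.1 CPM in KO (log2 fold change -0.19, SE 0.0738, adjusted p = 0.301 by the same test). In both genes the groups overlapped. Adamts13, the protease of von Willebrand factor, had 2 counts in all.

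Of the 5 ADAMTS-like genes, 0 were called by edgeR, DESeq2 or limma voom, and 1 (Adamtsl1) had an unadjusted p under 0.05. Adamtsl1 had 13.7, 10.9, 10.5, 14.4 and 13.5 CPM in control libraries and 12.1, 9.35, 6.98, 10.7 and 8.45 CPM in KO. Its groups overlapped through KO 1 and KO 4, and the log2 fold change was -0.41 (SE 0.139, adjusted p = 0.218 by edgeR's quasi-likelihood test). Adamtsl2 and Adamtsl4, both tied to fibrillin microfibrils, had log2 fold changes of -0.16 and -0.14, and Adamtsl5 had 0.11. Adamtsl3 was the lowest tested member per exon length, at 0.0785 RPKM on 5 to 22 counts a library, and its 95% interval from -1.06 to 0.71 was the widest of the 5.

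The membrane-type MMPs stay on the cell surface, where MMP14 cleaves fibrillar collagen and activates proMMP2. Mmp14 had 158 ± 17.1 CPM in control libraries and 153 ± 9.74 CPM in KO, with a log2 fold change of -0.04 (95% interval -0.20 to 0.11). Mmp15 had 17.6, 19.8, 20.9, 20.4 and 19.1 CPM in control libraries and 18.7, 15.9, 16.5, 15.7 and 15.9 CPM in KO. KO 1 alone lay within the control range, and the 4 other KO libraries were below every control library. For Mmp15 the log2 fold change was -0.24 (SE 0.0670), and its adjusted p by edgeR's quasi-likelihood test was 0.102 with all libraries, 0.0350 without KO 1 and 0.0424 without control 4 and KO 1. Mmp17 had a log2 fold change of 0.02 (95% interval -0.20 to 0.25), and Mmp16, Mmp24 and Mmp25 had 14, 29 and 3 counts in all.

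Of the MMPs outside the classical groups, Mmp19 was the most abundant. It had 196, 197, 187, 175 and 199 CPM in control libraries and 172, 167, 169, 175 and 168 CPM in KO. Control 4 fell among the KO libraries, and the other 4 control libraries were above all 5 KO libraries. The log2 fold change was -0.16 (SE 0.0415), and the adjusted p by edgeR's quasi-likelihood test was 0.0703 with all libraries, 0.0119 without control 4 and 0.0132 without control 4 and KO 1. Adjusted p was 0.0198 by DESeq2 and 0.0109 by limma voom. Exons of Mmp19 overlap genes on the opposite strand over 1001 bases, and fragments there could belong to either strand. Mmp23, anchored at the membrane by its prodomain, had 24.8 ± 1.90 CPM in control libraries and 21.6 ± 1.80 CPM in KO (log2 fold change -0.20, adjusted p = 0.230 by edgeR's quasi-likelihood test). Mmp28 (epilysin) had 47.2 ± 7.95 and 44.6 ± 6.48 CPM, and Mmp21 had 1 count.

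A cluster of 10 Mmp genes lies on chromosome 9 from 7272514 to 7699585, over 427.1 kb, in the order Mmp13, Mmp12, Mmp1b, Mmp3, Mmp1a, Mmp10, Mmp8, Mmp27, Mmp20 and Mmp7. It holds the genes listed as collagenases (Mmp1a, Mmp1b, Mmp8, Mmp13), a class named for cutting fibrillar collagen. Mmp1a is annotated as a polymorphic pseudogene. The cluster has the stromelysins Mmp3 and Mmp10, which cut proteoglycans and activate other proMMPs. It also holds the elastase Mmp12, the matrilysin Mmp7, the enamel protease Mmp20, and Mmp27. Levels ran from Mmp3 at 45.3 RPKM to 3 genes with no count. Only Mmp13, Mmp12, Mmp3 and Mmp27 passed the filter. By edgeR, DESeq2 and limma voom 0 of the 4 were called, and 1 (Mmp13) had an unadjusted p under 0.05.

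Promoters of this cluster are shown because its genes differ so widely in level. RefSeq windows for GRCm38.p6, from 250 bases before to 50 bases after the start, were found for 36 of the 51 genes. The RefSeq start lay 61068 bases from the annotated gene start in Adamts20, 3994 bases in Mmp11 and 329 bases in Timp2. Their windows, each with a GC box, are counted below. No window was given for Mmp9, Adamts15, Adamts4 or Adamts19, nor for Adamts5, Adamts6, Adamts7, Adamts8, Adamts10, Adamts16, Adamtsl1, Mmp2, Mmp16, Mmp17 and Mmp19. The 150 bases before the start are printed 5′ to 3′ on the plus strand for the most abundant gene of the cluster, for 2 low ones and for 1 with no count. Capitals mark the AP-1 motif TGANTCA (N is any base), the binding sequence of Fos and Jun proteins, and the TATA box TATAAA. The windows are chr9:7445672-7445821 (Mmp3), chr9:7272364-7272513 (Mmp13), chr9:7502192-7502341 (Mmp10) and chr9:7691940-7692089 (Mmp7).
Mmp3: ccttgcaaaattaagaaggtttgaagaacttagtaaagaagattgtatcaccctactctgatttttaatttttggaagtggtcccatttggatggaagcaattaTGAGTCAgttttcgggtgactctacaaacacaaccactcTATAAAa
Mmp13: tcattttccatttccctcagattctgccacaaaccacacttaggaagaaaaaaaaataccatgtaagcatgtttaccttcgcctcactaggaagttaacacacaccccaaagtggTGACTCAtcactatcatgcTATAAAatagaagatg
Mmp10: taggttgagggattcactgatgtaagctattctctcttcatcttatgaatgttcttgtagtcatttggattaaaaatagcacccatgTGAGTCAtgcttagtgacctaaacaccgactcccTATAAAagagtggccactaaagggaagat
Mmp7: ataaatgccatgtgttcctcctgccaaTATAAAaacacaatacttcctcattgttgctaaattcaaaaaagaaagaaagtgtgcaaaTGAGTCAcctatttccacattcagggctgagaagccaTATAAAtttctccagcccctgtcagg

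The first base of the AP-1 match lay 46, 35, 63 and 63 bases before the start in Mmp3, Mmp13, Mmp10 and Mmp7, each time followed by a TATA box, and Mmp7 had a further TATA box upstream of it. Both motifs, searched on both strands of the 300-base window, were found in 7 of the 10 cluster genes (these 4 with Mmp1a, Mmp1b and Mmp20), in 0 of the other 26 members with a window, and in 450 of 26994 promoters of the whole table (1.67%). The cluster genes are neighbours of the same family, so their motifs need not be independent, and the motif shares were not tested. The AP-1 motif alone was found in 7.94% and the TATA box in 14.2% of all promoters. The C/EBP motif TTGCNNAA was found in 6 of the 10 cluster genes, in 0 of the other 26 and in 10.8% of all promoters. The GC box GGGCGG was found in 0 of the 10, in 6 of 8 other Mmp genes, in 15 of 18 Adamts, Adamtsl and Timp genes and in 35.9% of all promoters. GC content was 37.7% to 46.7% in the cluster windows, 54.3% to 80.0% in the other Mmp windows and 53.3% to 78.7% in those of the other 3 families. The CRE TGACGTCA, the NF-kB motif (GGGA, any base, TTTCC) and the PPAR motif, a pair of AGGTCA repeats with 1 base between, were found in 0 of the 36 and in 1.88%, 0.385% and 0.0445% of all promoters. Mmp3 at 45.3 RPKM and Mmp7 with 0 counts both hold the AP-1 and TATA motifs. For each gene, here and over all promoters, the first window listed was used. For Mmp12, Mmp23 and Mmp7, with 2 windows each, it was also the one nearest the annotated start. The other window held both AP-1 and TATA motifs in Mmp12, neither in Mmp7 and a GC box in Mmp23, so the counts of genes with a motif depend on this choice.

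Mmp3, stromelysin-1, had 64.8, 60.4, 93.9, 117 and 103 CPM in control libraries and 100.3, 71.9, 65.8, 68.9 and 69.9 CPM in KO. The groups overlapped fully, with control 1, control 2 and 4 KO libraries below 72 CPM. The log2 fold change was -0.22 (95% interval -0.60 to 0.16, Benjamini-Hochberg adjusted p = 0.713, edgeR quasi-likelihood test). Mmp13, collagenase-3, had 1.10, 1.31, 1.22, 2.27 and 1.86 CPM in control libraries and 1.19, 0.966, 0.829, 0.779 and 0.560 CPM in KO, on 11 to 47 counts a library. KO 1 was above control 1, and the 4 other KO libraries were below all controls. Its log2 fold change of -0.84 had an SE of 0.247 and an adjusted p of 0.130 by edgeR's quasi-likelihood test.

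Mmp12, the macrophage elastase, had 4.61, 4.46, 8.42, 17.2 and 8.24 CPM in control libraries and 14.5, 6.37, 4.54, 7.33 and 4.84 CPM in KO, so its highest libraries were control 4 and KO 1, the pair that stood apart on the first principal component. With an SE of 0.390 around a log2 fold change of -0.19, a change of the size seen in the called ADAMTS genes was not detectable. Mmp27 had 3.59 ± 0.442 and 3.15 ± 0.194 CPM. Outside the filter, Mmp8 had 67 counts over the 10 libraries, Mmp10 had 13 and Mmp1a 1. The third stromelysin by name, Mmp11, lies on chromosome 10 and had 17.1 ± 1.51 and 17.3 ± 0.921 CPM.

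**Figure D4:**
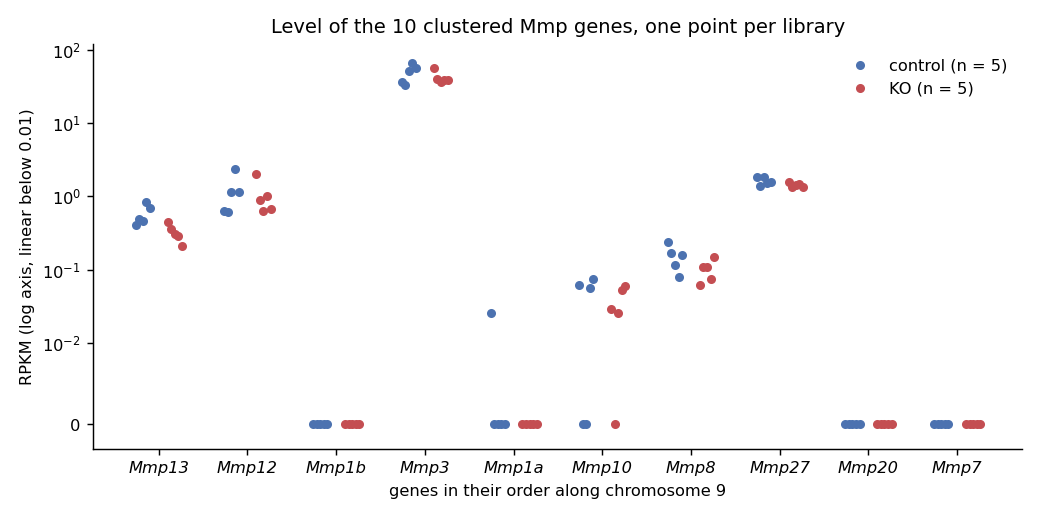
RPKM of the 10 clustered Mmp genes in their order along chromosome 9, with 1 point per library (blue control, red KO, n = 5 each), on an axis that is logarithmic above 0.01 and linear below. Mmp3 stands above its neighbours at a mean of 45.3 RPKM, and Mmp1b, Mmp20 and Mmp7 lie at 0 in all 10 libraries.

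Of the 4 TIMP genes 0 were called by edgeR, DESeq2 or limma voom, 1 (Timp3) had an unadjusted p under 0.05, and all 4 log2 fold changes were below 0. Timp1 had 70.5, 81.1, 91.5, 78.0 and 97.5 CPM in control libraries and 76.7, 74.3, 70.5, 89.6 and 82.4 CPM in KO. Timp2, which also helps MMP14 to activate proMMP2, had 305, 284, 328, 244 and 296 CPM in control libraries and 276, 244, 286, 295 and 258 CPM in KO. In both genes the groups overlapped. The log2 fold changes were -0.09 (95% interval -0.28 to 0.10) for Timp1 and -0.10 (-0.26 to 0.06) for Timp2.

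Timp3, the inhibitor held in the matrix, was the TIMP with the largest difference. It had 83.5, 86.1, 71.5, 90.2 and 82.8 CPM in control libraries and 81.0, 74.3, 70.2, 66.7 and 61.2 CPM in KO, with control 3 inside the KO range. Its log2 fold change was -0.23 (SE 0.0768, Benjamini-Hochberg adjusted p = 0.207, edgeR quasi-likelihood test). Timp4, a TIMP known from fat and heart, had 4.09, 5.17, 4.70, 4.45 and 4.61 CPM in control libraries and 4.66, 4.30, 4.41, 4.63 and 3.21 CPM in KO libraries (log2 fold change -0.12). Exons of Timp3 overlap Syn3 over 1733 bases and those of Timp4 overlap Syn2 over 90 bases, both on the opposite strand. The summed TIMP level was 416 to 495 CPM in control and 397 to 456 CPM in KO, and the summed Mmp level was 754 to 926 and 765 to 921 CPM, both overlapping.

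Around these families, 75 genes were listed by role, 74 were in the table and 59 were tested. Of these, 10 (16.9%) fell by edgeR's quasi-likelihood test, where 1.86% of all genes were lower, and 15 fell by DESeq2 and 13 by limma voom. The list was drawn up with earlier results of these data known, so these shares are not an independent comparison. On the higher side 0 were called by the 3 tools and 1 had an unadjusted p under 0.05, and the median log2 fold change was -0.08. Activators of the zymogens had 1 lower of 8 tested, Plat, the tissue plasminogen activator (log2 fold change -0.35). Inhibitors and clearance receptors outside the TIMPs had 1 of 9, Reck, a membrane-anchored inhibitor of MMPs, at 27.1 ± 1.24 CPM in control and 21.3 ± 1.44 CPM in KO (log2 fold change -0.35, Benjamini-Hochberg adjusted p = 0.00624, edgeR quasi-likelihood test). Cofactors and binding partners had 4 of 11: Itgb3, an integrin subunit that binds MMP2 (30.9 to 16.6 CPM, log2 fold change -0.90), Pcolce2 (-0.66) and Pcolce, enhancers of procollagen C-terminal processing, and the proteoglycan Sdc1. Of 13 related metalloproteinases, such as Adam12 and Bmp1, 0 were called by the 3 tools and 2 had an unadjusted p under 0.05. Matrix substrates had 4 of 18: Lum, the collagen-binding proteoglycan lumican (40.8 to 23.9 CPM, -0.78), Col3a1 (-0.47), Col1a1 and Col1a2, with overlapping groups for the last pair. The count of 10 fell to 6 without control 1 or control 3, to 5 without control 5 or KO 5, and to 4 without KO 2. Endothelial markers (20 of 22 called lower) and progenitor markers (2 of 13 called lower) moved in the same comparison. Of the 13 progenitor markers, 6 had an unadjusted p under 0.05 on the lower side. Endothelial cells are known to express Plat and Itgb3. The part of these cells in the pathway counts was not tested.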

How the data were processed

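RNA of 5 control and 5 Ad-Fam20c–KO adipocyte cultures was converted with SMARTer v4 reagents, made into Nextera XT libraries and sequenced as paired ends of 50 cycles. The authors aligned reads with STAR v2.6.0c to GRCm38.p6 (mm10 in the submitters' processing notes), assigned them to Ensembl genes with featureCounts v1.6.2 and deposited raw counts, with no normalization. The table was checked for columns of other samples (0) and rows without a gene name (0).

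The deposited counts were analysed in R 4.3.3 with edgeR 4.0.16. Its filterByExpr (minimum count 10) took out low genes, up to 0.111% of a library's counts, and TMM factors were 0.974 to 1.02. It tested KO against control, without covariates, by the quasi-likelihood test. P-values were 2-sided and Benjamini-Hochberg adjusted over 14270 genes, with a limit of 0.05. SEs were obtained from the log2 fold change and the F statistic. The biological coefficient of variation was 9.35%. Libraries of a group differed by more than sampling noise (chi-square per degree of freedom at least 3.29 over 20 pairs). At 18949106 to 26237825 counts per library, precision is lowest for genes with few counts. The permutation test of Fam20c used all 252 splits.

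Positions and exon lengths are from GENCODE M21. Promoters are from RefSeq. The members, roles and gene lists were chosen with earlier results of these data known. Genes were named when called, with an unadjusted p under 0.05, as a Timp gene, or as 1 of the 3 with the highest RPKM of a family. Other members named with values were chosen after these were seen. Alternatives were DESeq2 1.42.0, limma voom with sample quality weights (limma 3.58.1), other scalings and filters, a replicate block and libraries left out. The code was tested on simulated data.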

Additional observations from a re-analysis of the deposited data

Results flagged for a closer look

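In 46 groups of 5 libraries (each named gene in each genotype), the gap from the highest or lowest library to its nearest neighbour was set against the group's range (Dixon's ratio), with a critical value of 0.71. Chance alone flags about 5% of groups, or 2.30 of the 46, and 4 were flagged. Mmp2 stood at 301.1 CPM in KO 1, with the other 4 KO libraries at 239 to 249.7 CPM (ratio 0.827). Mmp3 stood at 100.3 CPM in KO 1, with the others at 65.8 to 71.9 CPM (ratio 0.823). Mmp15 stood at 18.7 CPM in KO 1, with the others at 15.7 to 16.5 CPM (ratio 0.737). Timp4 stood at 3.21 CPM in KO 5, with the others at 4.30 to 4.66 CPM (ratio 0.753). In 3 of the 4 the library was KO 1, which also stood apart on the first principal component.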

How the results depend on the processing

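No log2 fold change of Fam20c or of the 22 members named by the rule turned sign in 18 alternative fits. Of the 13 other tested members, 0 were called in any fit by edgeR, DESeq2 or voom, and 7 turned sign in at least 1: Adamts3 (-0.03 to 0.24), Adamts9 (-0.04 to 0.11), Adamtsl3 (-0.45 to 0.14), Mmp11 (-0.02 to 0.06), Mmp12 (-0.56 to 0.22), Mmp17 (-0.05 to 0.09) and Mmp28 (-0.17 to 0.01). Fam20c stayed between -0.54 and -0.43 with 1 library left out (adjusted p by edgeR 0.00778 to 0.0476) and was called in all 18. Among the members, 3 lower genes became 5 without control 4 and KO 1, and with 1 library left out the counts were 3 to 4 lower and 0 to 1 higher. Mmp9 was called in 11 of 18, with adjusted p by edgeR, DESeq2 or voom of 0.00152 to 0.109, Mmp19 in 4 (0.0109 to 0.196) and Mmp15 in 2 (0.0350 to 0.278). Over all genes, 44 higher calls became 125 with DESeq2, 111 with limma voom under sample quality weights (tool and weights changed together) and 145 without control 4 and KO 1. With 1 library left out, all genes had 164 to 323 lower and 19 to 119 higher calls. The 10 lower pathway genes became 4 to 11, and the 0 higher ones became 0 to 1, or 2 without control 4 and KO 1. The cause was not tested.

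Both groups carry replicate numbers 1 to 5. Deviations of same-numbered libraries had correlations from -0.25 to 0.26, and 1 of 5 correlated best with its own number. These 5 correlations gave no sign of pairing by number but cannot exclude it. With the replicate block, members had 3 lower and 1 higher call, lower pathway genes were 5, and all genes had 193 lower and 21 higher calls. Depth limits the 16 untested genes, with at most 11 counts in a library, and tested genes such as Mmp13, Adamts3 and Adamtsl3. Sums over a gene do not resolve isoforms, and genes that overlap on opposite strands may share fragments.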
